A study of Mus musculus with 24 samples.

Results

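The HOX cluster genes are the mouse genes Hoxa, Hoxb, Hoxc and Hoxd with paralog numbers from 1 to 13, which lie in 4 clusters on chromosomes 6, 11, 15 and 2 (GRCm38.p6). The members were taken as every gene of that name whose transcript accession is printed on a non-control probe of the array, with antisense transcripts left out, and a gene with more than 1 probe was read on the brightest, over all arrays between tissues and over the arrays of the tissue within one. Of the 39 genes, 36 had a probe, through 46 of the 41174 probes, and Hoxc4, Hoxc6 and Hoxc11 had none. Levels were read in endothelial cells sorted as CD105+/CD45- from the aorta and from the leg muscles (plantaris, gastrocnemius and biceps femoris) of male mice. The wild-type mice (WT) were C57BL/6J, and the galectin-3 knockout mice (KO) were B6.Cg-Lgals3tm1Poi/J, homozygous for a targeted deletion in Lgals3 in every cell of the body. From 8 weeks of age the mice ate a high-fat diet (HFD) with 60% of its calories from fat, or chow with 12%, for 8 weeks. Each of the 8 groups of tissue, strain and diet had 3 arrays, 1 for each of 3 experiments, and each array carried amplified RNA of about 10000 cells pooled from 3 to 4 mice. The aorta and the muscle of a strain, diet and experiment came from the same pool of mice.

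HOX genes encode homeodomain transcription factors that give cells their position along the head to tail axis of the embryo. In each cluster the genes lie in the order of their paralog numbers, with low numbers expressed toward the head and high numbers toward the tail and the limb ends, and adult cells often keep such a code. HOX proteins bind DNA together with TALE homeodomain cofactors of the PBX, MEIS and PKNOX families. Polycomb proteins keep silent HOX genes repressed, Trithorax proteins keep active ones expressed, and retinoic acid and CDX proteins set the code in the embryo. In endothelial cells, HOX genes are known from work on angiogenesis, in which Hoxd3 and Hoxb3 act on the activated state and Hoxd10 and Hoxa5 on the resting state.

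The annotated start regions of 4 members that differed between the tissues are shown, since the arrays compare their transcripts and the motifs of the regulators described further on can be looked for there. They run from 250 bases before to 50 bases after the RefSeq start on GRCm38.p6 and are written 5′ to 3′ along the gene. Hoxa11 lies at chr6:52245761-52246060 on the minus strand, Hoxd10 at chr2:74691641-74691940, Hoxd8 at chr2:74704365-74704664 and Hoxd4 at chr2:74721728-74722027, all 3 of these on the plus strand. Capitals mark matches on either strand to TGATTNAT (a joint site of PBX and HOX proteins), AGGTCA (a hexamer bound by nuclear receptors, the retinoic acid receptors among them), TTTATNG (a core of CDX sites) or TATAAA (the TATA box), which may overlap.
Hoxa11: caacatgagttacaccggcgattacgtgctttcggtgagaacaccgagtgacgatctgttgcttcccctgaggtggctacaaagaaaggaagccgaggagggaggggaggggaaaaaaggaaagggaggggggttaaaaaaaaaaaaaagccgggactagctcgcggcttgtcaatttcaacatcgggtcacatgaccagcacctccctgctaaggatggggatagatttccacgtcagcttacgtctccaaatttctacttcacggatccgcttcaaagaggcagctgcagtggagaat
Hoxd10: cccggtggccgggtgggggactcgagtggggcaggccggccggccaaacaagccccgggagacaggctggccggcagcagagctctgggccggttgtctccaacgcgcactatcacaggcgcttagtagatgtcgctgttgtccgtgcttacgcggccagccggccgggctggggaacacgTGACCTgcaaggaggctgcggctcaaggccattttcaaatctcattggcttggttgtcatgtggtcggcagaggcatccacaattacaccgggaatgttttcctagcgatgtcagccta
Hoxd8: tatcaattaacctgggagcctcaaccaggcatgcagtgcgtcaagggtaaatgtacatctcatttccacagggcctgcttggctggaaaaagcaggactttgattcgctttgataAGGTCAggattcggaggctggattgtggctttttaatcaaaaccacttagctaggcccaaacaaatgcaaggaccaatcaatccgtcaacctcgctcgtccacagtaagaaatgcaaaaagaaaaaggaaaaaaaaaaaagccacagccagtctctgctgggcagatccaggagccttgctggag
Hoxd4: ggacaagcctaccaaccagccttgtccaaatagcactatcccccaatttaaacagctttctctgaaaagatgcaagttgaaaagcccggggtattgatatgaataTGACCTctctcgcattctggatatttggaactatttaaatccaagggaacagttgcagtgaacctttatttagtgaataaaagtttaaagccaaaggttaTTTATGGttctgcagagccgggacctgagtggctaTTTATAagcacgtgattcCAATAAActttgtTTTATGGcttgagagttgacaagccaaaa

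The region of Hoxa11, higher in the aorta, held none of these letters. The regions of Hoxd10, higher in the aorta, and of Hoxd8, higher in the muscle, held AGGTCA 1 time each. The region of Hoxd4, higher in the muscle, held AGGTCA 1 time, TTTATNG 3 times and TATAAA 1 time. Over 24 start regions of 22 HOX genes, AGGTCA was present in 7, TATAAA in 4, and TTTATNG and TGATTNAT in 2 each. Over all 32851 start regions of the table, 16.3% held AGGTCA, 13.6% TATAAA, 10.9% TTTATNG and 3.22% TGATTNAT. The HOX regions held a median of 14.5 CG dinucleotides, against 7 over all regions, and the 4 printed ones held 15, 22, 6 and 4 in the order shown.

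Per array, a level is the log2 of the processed signal divided by the 75th percentile of the array, so that 0 marks the 75th percentile and a difference of 1 is a doubling. Well above background were 59.5% to 75.7% of an array's non-control spots. The 14 endothelial markers of a fixed list (Pecam1, Cdh5 and Kdr among them) were well above background on all 24 arrays. Their summed linear level was 192 to 577 times the 75th percentile in the aorta and 571 to 913 times in the muscle. The fibroblast and muscle fibre markers differed by more than these. All 11 fibroblast markers were higher in the aorta, with summed levels of 355 to 837 in the aorta and 27.3 to 241 in the muscle, and all 9 skeletal muscle fibre markers were higher in the muscle, with 24.5 to 175 against 1.05 to 8.36. The Lgals3 probe was well above background on 24 of 24 arrays and in 11 of 12 pairs gave more signal on the KO-labelled array, with log2 levels of 0.90 to 4.98 on WT and 2.40 to 6.31 on KO arrays. Its place relative to the deletion was not analysed, and strains are given as labelled. By 34 probes with a strain difference in experiments 2 and 3, the chow arrays of experiment 1 lay near their labelled strain. On a scale from 0 (WT) to 1 (KO), the HFD arrays of experiment 1 lay at 0.14 (labelled WT) and 0.36 (labelled KO) in the aorta, and at 0.38 and 0.44 in the muscle. Results on diet and strain are therefore also given without experiment 1.

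Most of the HOX genes were detected in the sorted cells of both tissues. These cells also gave the fibroblast and muscle fibre signal described above, and which cell type gave the HOX signal was not tested. Of the 36 genes with a probe, 23 were well above background on all 24 arrays, 10 on 1 to 23 arrays and 3 (Hoxb1, Hoxc13 and Hoxd13) on none. In the Hoxa cluster, 10 of 11 genes, among them Hoxa2 to Hoxa7 and Hoxa9 to Hoxa11, were detected on every array, and Hoxa13, the last gene of the cluster, on 3 of 12 aortic and 2 of 12 muscle arrays. In the Hoxb cluster, the 8 genes from Hoxb2 to Hoxb9 were detected on every array, while Hoxb1 was on none and Hoxb13 on 1 array of the muscle. In the Hoxc cluster only Hoxc9 was detected on all 24 arrays, with Hoxc10 on 23, and in the Hoxd cluster Hoxd4, Hoxd8, Hoxd9 and Hoxd10 were. By paralog number, 5 of 8 anterior genes (1 to 3), 11 of 13 central genes (4 to 8) and 7 of 15 posterior genes (9 to 13) were detected on every array. None of the paralogs numbered 13 was detected on more than 3 of the 12 arrays of either tissue. The map of detection by cluster and paralog shows the same stretch of detected genes in both tissues, with differences at Hoxc8, Hoxc5, Hoxd11 and Hoxd12.

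**Figure D1:**
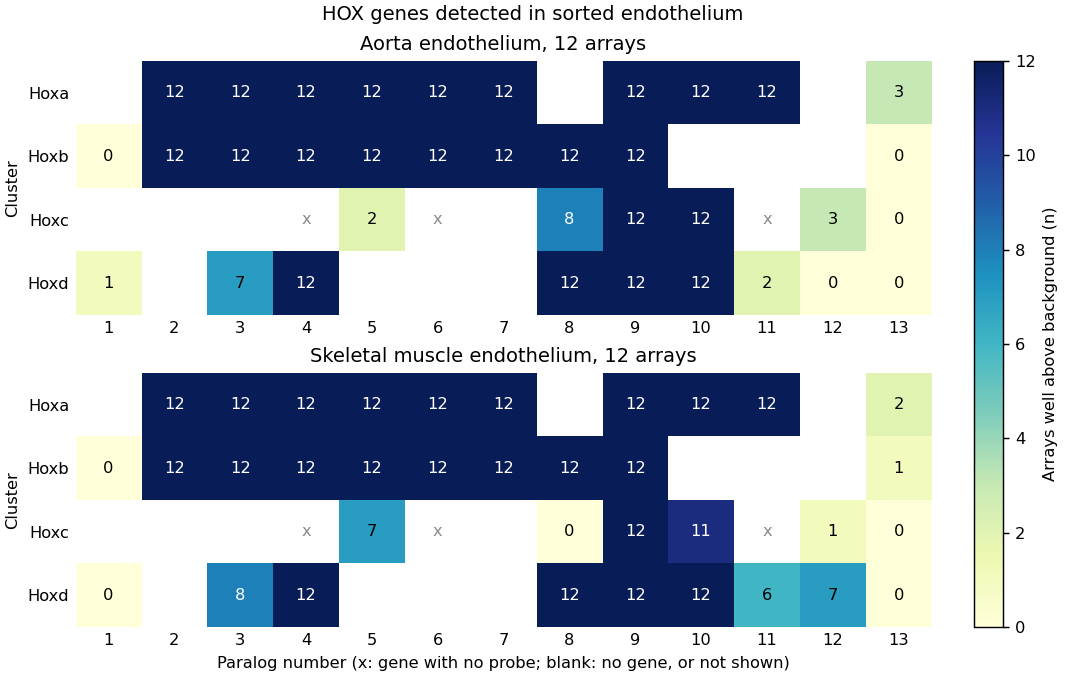
Number of arrays, of 12 per tissue, on which the probe of each HOX gene was well above background. Rows are clusters and columns paralog numbers, and an x marks a gene with no probe. Hoxa2 to Hoxa7, Hoxa9 to Hoxa11 and Hoxb2 to Hoxb9 stood at 12 in both tissues, and Hoxc8 stood at 8 in the aorta and at 0 in the muscle.

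The first comparison asked which HOX genes differ between the cells sorted from aorta and from muscle, over 12 pairs of the same mice. Of 27 members tested, 10 were higher in the aorta, 8 were higher in the muscle and 9 did not pass the test (limma, Benjamini-Hochberg adjusted p under 0.05 over all probes). The tissues differed at 55.7% of all 27387 probes tested, 17.8% higher and 37.9% lower in the aorta, beside 66.7%, 37% and 29.6% of the members. The background is thus one in which most probes differ, and nothing is read from the share of members called. Of the 23 members detected on all 24 arrays, 15 were called. Hoxc8 and Hoxd12 entered the test only through the group in which each was high, so their calls are given as descriptions. The aorta was higher at the posterior genes Hoxc9, Hoxa11, Hoxa10, Hoxc10, Hoxd10 and Hoxa9, and at Hoxc8, Hoxa5, Hoxb2 and Hoxa3. The muscle was higher at Hoxd8, Hoxd4, Hoxb7, Hoxb5, Hoxd9, Hoxa7, Hoxa4 and Hoxd12. The median difference of all probes was -0.27, and with the arrays centred on their median instead the counts were 10 higher, 7 lower and 10 not past. In the deposited log2 table, which lifts the aortic arrays, they were 12 higher in the aorta and 6 higher in the muscle. The shares of all probes given above hold for the main scaling only. Nothing is read from the counts under other scalings or from that of the members detected on all 24 arrays.

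Hoxc9, a posterior gene active in the thoracic region of the embryo, had the largest difference of the members. Its aortic level ran from -0.11 over a median of 1.38 to 2.50, and its muscle level from -3.37 over -1.98 to -0.84. Every aortic array lay above every muscle array. The difference was 3.26 on the log2 scale (standard error 0.27), a 9.57-fold higher level in the aorta (limma adjusted p = 7.72e-06), and the aorta was higher in 12 of 12 pairs. By experiment the mean difference was 2.50, 3.89 and 3.38. Such a lack of overlap was seen for 2 of the 27 members, or 7.41%, and for 5.65% of all probes tested.

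Hoxc8, next to Hoxc9 in the cluster, was well above background on 8 of 12 aortic arrays and on 0 of 12 muscle arrays. Its aortic level ran from -7.61 over -5.32 to -3.90. It was at least 1.46-fold higher in the aorta (limma adjusted p = 4.74e-05). The probe was well above background on 3 of 3 arrays in WT chow aorta only, through which it entered the test, so this p sets it against background values and is no support. Hoxc10, on the other side of Hoxc9, ran from -5.34 over -1.87 to -0.67 in the aorta and from -6.51 over -3.16 to -2.25 in the muscle. Its difference was 1.20 (standard error 0.38, limma adjusted p = 0.0206), with the aorta higher in 11 of 12 pairs and the tissues overlapping. By group the difference of Hoxc10 was 0.34 on chow and 2.63 on HFD in WT mice, and 0.11 and 1.72 in KO mice. The change between diets did not pass (limma adjusted p = 0.387). Of the Hoxc cluster, Hoxc9 is thus the only member detected on all arrays of both tissues.

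In the Hoxa cluster the fitted difference was larger at Hoxa10 than at Hoxa9, and larger again at Hoxa11. Hoxa11, a gene of limb and kidney patterning, ran from -2.06 over 0.07 to 1.42 in the aorta and from -4.77 over -2.77 to -1.58 in the muscle. The difference was 2.74 (standard error 0.36), or 6.66-fold (limma adjusted p = 0.000153), in 11 of 12 pairs, and the tissues overlapped. Hoxa10, a gene of uterine and limb patterning, differed by 1.26 (standard error 0.18, limma adjusted p = 0.000234), in 11 of 12 pairs. By group the difference of Hoxa10 was 1.64 on chow and 1.89 on HFD in WT mice, and 0.26 and 1.27 in KO mice. The change between strains did not pass (limma adjusted p = 0.996). Hoxa9, which is required for postnatal angiogenesis, differed by 0.42 (standard error 0.12, limma adjusted p = 0.0127), in 8 of 12 pairs, a call lost on slide means (limma adjusted p = 0.0831). Hoxa5 ran from 0.18 over 0.92 to 1.45 in the aorta and from -0.64 over 0.32 to 0.83 in the muscle, and was higher in the aorta in 12 of 12 pairs, by 0.57 (standard error 0.12, limma adjusted p = 0.00245). Hoxa3, whose gene model spans those of Hoxa4, Hoxa5 and Hoxa6, differed by 0.31 and lay at the threshold (limma adjusted p = 0.0497). Toward the head end of the cluster, Hoxa2 did not pass the test, with a difference of 0.22.

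Of 12 tested genes of the central part of the clusters, 6 were higher in the muscle (37.9% of all probes) and 2 in the aorta (17.8% of all probes), and 5 and 2 with the arrays centred on their median. The 2 were Hoxa5 and Hoxc8, and Hoxc8 entered the test only through the group in which it was high. Nothing is read from these counts. Hoxd8 ran from -2.08 over -0.78 to -0.58 in the aorta and from -0.26 over 0.07 to 0.47 in the muscle. Every muscle array lay above every aortic array. Its level was 2.28-fold higher in the muscle, a difference of -1.19 (standard error 0.14, limma adjusted p = 9.2e-05). Hoxd4, whose gene model overlaps that of Hoxd3, is a target of retinoic acid in the embryo. It ran from 0.43 over 1.63 to 2.48 in the aorta and from 2.05 over 2.62 to 3.12 in the muscle, a difference of -1.09 (standard error 0.18, limma adjusted p = 0.000548). Hoxb7 ran from 2.12 over 2.50 to 3.59 in the aorta and from 3.11 over 3.64 to 4.21 in the muscle, a difference of -0.95 (standard error 0.13, limma adjusted p = 0.000211). Hoxb5, which takes part in the commitment of endothelial precursors, ran from -1.43 over -0.13 to 0.47 and from 0.04 over 0.84 to 1.57. Its difference was -0.95 (standard error 0.15, limma adjusted p = 0.000569), so that both Hoxb genes were nearly doubled in the muscle. Hoxa7 differed by -0.51 (standard error 0.08, limma adjusted p = 0.000545). All 5 of these genes were lower in the aorta in 12 of 12 pairs, and the levels of Hoxd4, Hoxb7, Hoxb5 and Hoxa7 overlapped between the tissues.

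**Figure D2:**
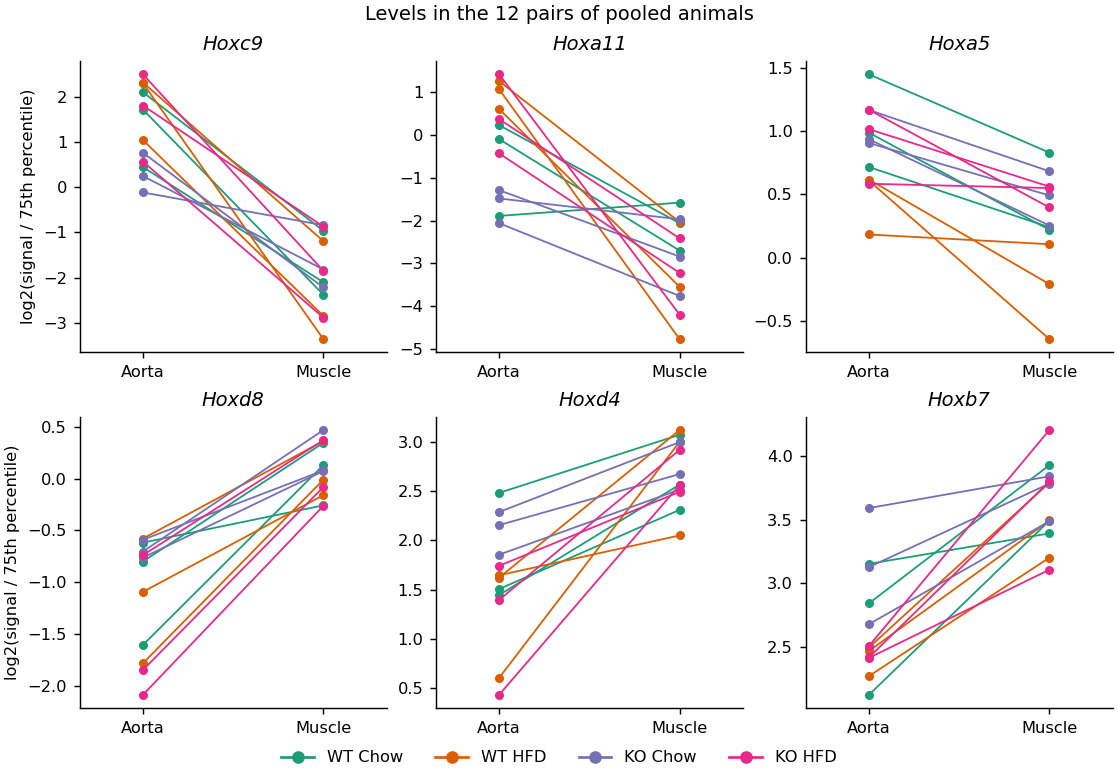
Level (log2 of the signal over the array's 75th percentile) of 6 HOX genes in aorta and muscle. Each line joins the 2 tissues of 1 pool of mice, and colours give strain and diet. The lines of Hoxc9 and Hoxa5 fall in all 12 pairs, those of Hoxa11 in 11, and those of Hoxd8, Hoxd4 and Hoxb7 rise in all 12.

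The Hoxd cluster changed sign between neighbours. Hoxd9 was higher in the muscle in 12 of 12 pairs, by 0.71 on its brighter probe (standard error 0.15, limma adjusted p = 0.00298), and a dimmer probe of the gene differed by -0.07 and did not pass. Hoxd10 was higher in the aorta in 9 of 12 pairs, with levels from -5.25 over -2.80 to -1.21 against -4.64 over -4.13 to -3.23. The difference was 1.14 (standard error 0.30, limma adjusted p = 0.00893), and the tissues overlapped. The gene models of Hoxd10 and Hoxd11 overlap, and whether the probe reads Hoxd10 alone was not tested. Hoxd12 was well above background on 0 aortic and 7 muscle arrays and was at least 1.09-fold higher in the muscle (limma adjusted p = 0.0184). It entered the test only through WT chow muscle, where 3 of 3 arrays were above background, and its p is no support. Hoxd3, at 7 and 8 arrays, differed by 0.09 with a standard error of 0.36 and did not pass.

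The rest of the members showed small differences. Hoxb2 (0.36, limma adjusted p = 0.0261) was higher in the aorta, and Hoxa4 (-0.34, limma adjusted p = 0.0328) was higher in the muscle. Both calls were lost on slide means (limma adjusted p = 0.165 and 0.111). Hoxb3, Hoxb4, Hoxb6, Hoxb8, Hoxb9 and Hoxa6 did not pass, with differences between -0.35 and -0.05. The dimmer probes of Hoxb3 and Hoxb9 differed by -0.72 and -0.70, unlike their brighter ones at -0.05 and -0.24, so these genes are uncertain. Over the 23 genes detected on all 24 arrays, the median difference was 0.22 at anterior, -0.35 at central and 1.14 at posterior paralogs, beside -0.27 over all probes. The differences ran from -0.05 to 0.36 at anterior, -1.19 to 0.57 at central and -0.71 to 3.26 at posterior paralogs. The rank correlation of paralog number with the difference was 0.21 over these 23 genes. By cluster it was 0.45 over 10 Hoxa genes, -0.52 over 8 Hoxb genes and 0.8 over 4 Hoxd genes. These genes share arrays and neighbours, so the correlations are a description.

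**Figure D3:**
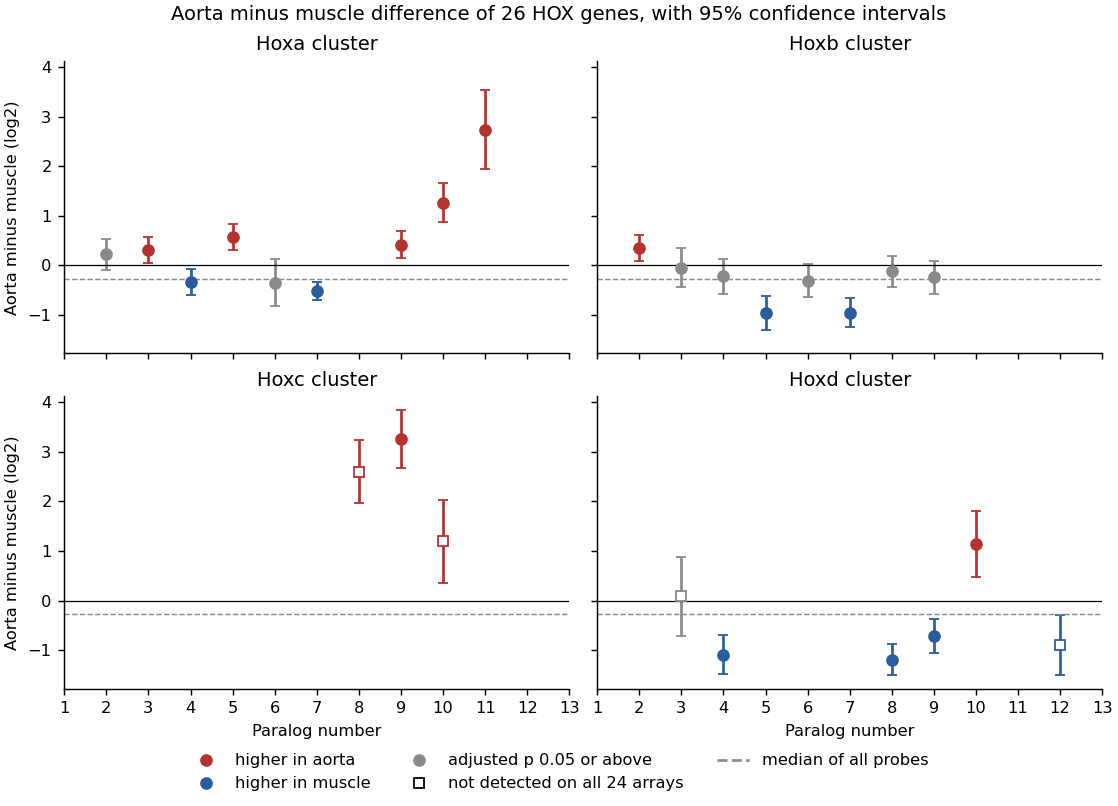
Fitted aorta minus muscle difference (log2) of 26 of the 27 tested HOX genes by paralog number, with 95% confidence intervals, 1 panel per cluster. Colours give the call and open squares genes not detected on all 24 arrays, and the dashed line marks the median of all probes (-0.27). Hoxa9 to Hoxa11 and the tested Hoxc genes lie above 0, and Hoxd4, Hoxd8 and Hoxd9 lie below it.

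Of the 27 members, 9 had the same sign in all 12 pairs, 3 higher in the aorta (8.48% of all probes) and 6 lower (13.4% of all probes). The 3 include Hoxc8, whose muscle values were at background. Taken in each group alone, 8 members passed in WT mice on chow (22.7% of all probes) and 10 on HFD (23.6%), and in KO mice 2 passed on chow (9.98%) and 9 on HFD (24.8%). A test of the tissue difference itself found 0 members that differed between diets and 0 between strains after adjustment (0.00365% of all probes each). Before adjustment there were 5 and 2, with 10.8% and 4.32% of all probes. By diet, Hoxa11 had the smallest unadjusted p among the members. Its aorta minus muscle difference was 1.53 on chow and 4.43 on HFD in WT mice, and 1.25 and 3.73 in KO mice, a difference of 2.69 between diets (limma adjusted p = 0.281). By strain it was Hoxa9, at 0.54 and 1.12 in WT chow and HFD and at 0.11 and -0.10 in KO (limma adjusted p = 0.996). Of the 18 members called between tissues, 9 passed under every alternative that tested them (Hoxc9, Hoxc8, Hoxa11, Hoxa10, Hoxd8, Hoxd4, Hoxb7, Hoxb5 and Hoxa7), and the other 9 lost the call under at least 1. For Hoxc8 this is no support, since it entered the test only through the group in which it was high. With only probes well above background on every array it was not tested, and under normexp background correction its difference was 1.05. On the same contrast, 13 of 14 endothelial markers were higher in the muscle with a median of -1.06, a size near that of Hoxd8, Hoxd4, Hoxb7 and Hoxb5. The fibroblast and muscle fibre markers given above moved too, as did 4 of 5 satellite cell markers (higher in the muscle) and 4 of 4 adipocyte markers (higher in the aorta). Of 6 lymphatic endothelial markers, 3 were higher in the aorta and 1 in the muscle, with a median of 1.73. Of 7 pericyte markers, 1 was higher in the aorta and 5 in the muscle, with a median of -1.29. Nothing is read from these marker counts. The part of any of these cell types in the HOX differences was not tested. In sorted bulk RNA, fewer cells of a type and less RNA per cell cannot be told apart.

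The partners and regulators of the HOX genes were read from lists of known genes, chosen as described in the methods. Of 9 TALE cofactors, 6 were higher in the aorta (17.8% of all probes) and 2 in the muscle (37.9% of all probes). Their median difference was 1.66, and nothing is read from the counts. Meis2 differed by 5.05 and Pknox2 by 3.71, each detected on all 24 arrays. Meis1 was well above background on 12 aortic and 3 muscle arrays and Pbx4 on 12 and 4. Their measured differences of 5.40 and 2.78 are therefore set against muscle values mostly at background. Pbx3 (-0.91) and Pknox1 (-0.30, limma adjusted p = 0.0483) were higher in the muscle. Meis3 (1.66), detected on 10 arrays of each tissue, was also higher in the aorta, and Pbx2 (-0.22) did not pass. These differences are for 1 probe a gene, and the levels of different genes are not compared. On the same contrast the 11 fibroblast markers were higher in the aorta by a median of 4.31. Their part in the cofactor differences was not tested.

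Among the chromatin regulators, all 7 tested Trithorax genes and H3K27 demethylases were higher in the muscle (37.9% of all probes). Their median was -0.73 beside -0.27 over all probes, and Kmt2d (-1.27) and Kdm6b (-0.87) differed most. On the same contrast 13 of 14 endothelial markers were higher in the muscle, with a median of -1.06. The part of these markers in the Trithorax differences was not tested. Of 15 Polycomb genes, 7 were higher in the muscle (37.9% of all probes), led by Jarid2 (-1.15), Phc2 (-0.86), Ezh1 (-0.79) and Suz12 (-0.69), and 2 in the aorta (17.8% of all probes), led by Cbx8 (0.61). Nothing is read from these counts. The Polycomb median was -0.17, and on the scale of the deposited table, which lifts each aorta minus muscle difference by 0.27, it was 0.10. On that scale the Trithorax median was -0.47, and no called gene of these lists changed its sign. Of 8 tested axial and retinoic acid genes, the retinaldehyde dehydrogenases Aldh1a3 (4.85), Aldh1a1 (3.92) and Aldh1a2 (2.31) were higher in the aorta. Rarg (-1.29) and Cyp26b1, which breaks down retinoic acid (-2.14), were higher in the muscle. Cdx1, Cdx2 and Cdx4 were well above background on at most 2 arrays of a tissue. Of 12 tested regional transcription factors, 6 were higher in the aorta (17.8% of all probes), among them Prrx1 (3.71) and Tbx18 (2.20). In the muscle 5 were higher (37.9% of all probes), led by Tbx15 (-1.60), Tbx3 (-1.23), Msx1 (-0.90) and Tbx2 (-0.55). Nothing is read from these 2 counts either. Isl1, a factor of the second heart field, was well above background on 12 aortic and 3 muscle arrays and Tbx5 on 12 and 5, so their measured differences of 7.10 and 3.03 are set against muscle values mostly at background. Prrx1 is a mesenchymal factor, and the 11 fibroblast markers rose in the same contrast by a median of 4.31. Their part in it was not tested.

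**Figure D4:**
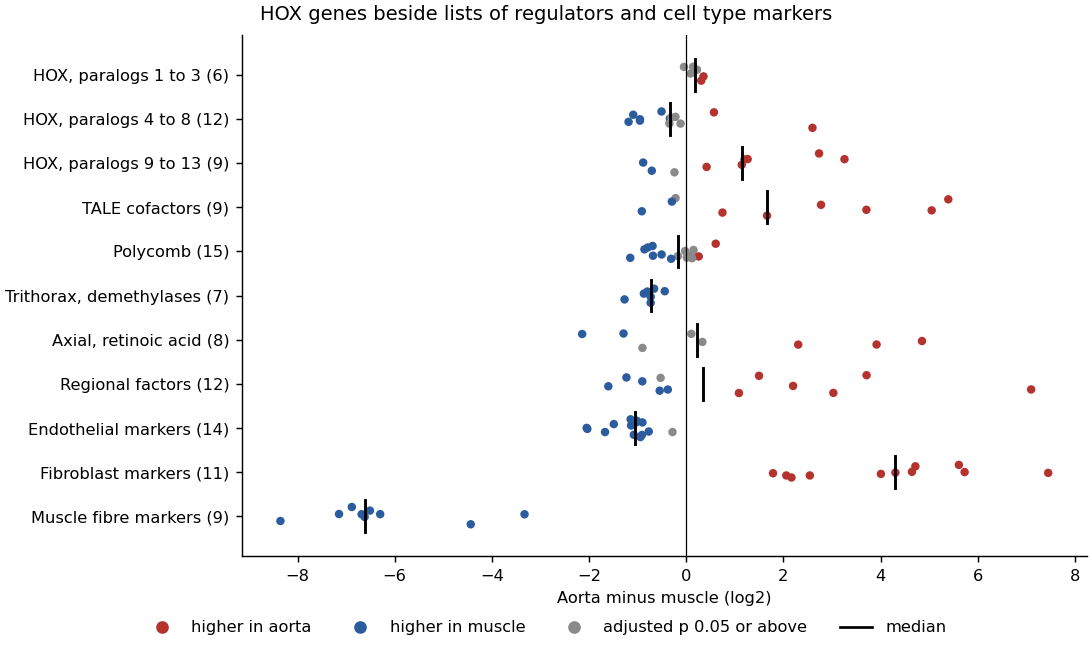
Aorta minus muscle difference (log2) of the tested genes of each list, 1 point a gene, with the number of genes in brackets and the median as a bar. Colours give the call. The HOX genes numbered 9 to 13 have a median of 1.14 and the TALE cofactors of 1.66, while the fibroblast markers have a median of 4.31 and the muscle fibre markers of -6.62.

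The next comparison asked how the members responded to HFD, as the log2 ratio of the HFD to the chow array of an experiment. After adjustment, 0 of 26 members tested passed in each of the 4 contrasts by limma, where 0 to 0.00389% of all probes did. On simulated data of the KO aorta this fit recovered no planted change, so a count of 0 does not show that the members did not respond. Without adjustment, 2 passed in WT aorta (5.77% of all probes), 4 in KO aorta (11.3%), 5 in WT muscle (12.1%) and 2 in KO muscle (8.49%). By the test of the methods on the 3 ratios the unadjusted counts were 1, 2, 6 and 2. No share of all probes stands beside these 4 counts, so nothing is read from them. By the criterion of the methods, a ratio past 1 with 1 sign throughout the 3 experiments, 1 member passed in WT aorta (1.59% of all probes), 1 in KO aorta (2.93%), 0 in WT muscle (1.83%) and 1 in KO muscle (0.989%). These were Hoxd10, Hoxa11 and Hoxd3, in that order. Counts of 0 or 1 gene cannot be set apart from these shares.

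Hoxd10, a gene that holds endothelium in its resting state, fell in WT aorta by the criterion. Its levels were -2.37, -1.21 and -1.63 on chow and -5.25, -2.72 and -2.87 on HFD, in experiments 1, 2 and 3. Each HFD array lay below each chow array, a description in a member picked by its ratios. The ratios were -2.88, -1.51 and -1.23, a mean of -1.87 ± 0.88 (SD, n = 3), with a limma adjusted p of 0.603. In KO aorta the levels were -4.04, -2.06 and -2.14 on chow and -3.42, -3.77 and -3.001 on HFD, so that the ratios of 0.63, -1.71 and -0.86 did not share a sign. The difference between the strains was 1.23 (standard error 0.73) and did not pass (limma adjusted p = 1.00).

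Hoxa11 rose in KO aorta by the criterion. Its levels were -1.48, -1.28 and -2.06 on chow and 0.38, 1.42 and -0.43 on HFD. Each HFD array lay above each chow array, again a description in a member picked by its ratios. The ratios were 1.86, 2.71 and 1.63, a mean of 2.06 ± 0.57 (SD, n = 3), with a limma adjusted p of 0.313. In WT aorta the levels were 0.23, -1.89 and -0.09 on chow and 1.26, 1.07 and 0.61 on HFD, with ratios of 1.03, 2.96 and 0.70 (mean 1.56 ± 1.22). In the muscle the ratios were 0.03, -3.19 and -0.85 in WT and -0.44, -1.36 and 0.54 in KO. The HFD aortic arrays were above their chow partners in 6 of 6 pairs, and the muscle arrays in 2 of 6. The gene was picked by its ratios in the KO aorta, so the sign of those 3 pairs was fixed and these counts are a description.

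The Hoxc genes of the KO aorta had positive ratios beside Hoxa11. Hoxc9 had ratios of 1.93, 1.74 and 0.32 (mean 1.33 ± 0.88) and Hoxc10 of 2.40, 1.21 and 0.89 (mean 1.499 ± 0.80), and neither passed 1 in all 3 experiments. Hoxc8 had a mean of 1.49 ± 0.94 but was well above background on 1 of 3 chow and 2 of 3 HFD arrays. In WT aorta the means of Hoxc9, Hoxc10 and Hoxc8 were 0.47, 1.11 and -0.52. The smallest limma adjusted p of any member in KO aorta was 0.313. On the same HFD contrast of the KO aorta, the median ratio was -0.80 over the 14 endothelial markers, 0.78 over the 11 fibroblast markers and -3.78 over the 4 tested adipocyte markers, all 4 of which were below -1 in all 3 experiments. In WT aorta these medians were -0.43, 0.36 and -3.86. Their part in the HOX ratios was not tested.

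Hoxd3, a gene of endothelial activation, was above background on all chow arrays of the muscle and on 1 of 3 HFD arrays in each strain. It entered the test of the muscle only through the chow groups, and that of the aorta only through WT HFD. In WT muscle its levels were -4.83, -4.52 and -4.27 on chow and -5.77, -8.44 and -6.74 on HFD, and in KO muscle -3.72, -5.16 and -4.40 on chow and -5.19, -8.20 and -6.64 on HFD. Each HFD array lay below each chow array of its strain. The lowest values are near the background, so the ratios are a description. They were -0.94, -3.92 and -2.47 in WT (mean -2.44 ± 1.49, limma adjusted p = 0.22) and -1.47, -3.04 and -2.24 in KO (mean -2.25 ± 0.78, limma adjusted p = 0.406). Hoxd3 read lower on HFD in all 6 pairs of the muscle, and in the aorta the ratios were 1.68, -0.24 and 1.39 in WT and -0.66, -0.07 and -0.34 in KO. Hoxb4, with the next smallest unadjusted p in WT muscle, had mean levels of -0.84 on chow and -1.72 on HFD and ratios of -0.72, -1.28 and -0.63 (limma adjusted p = 0.3). On the same HFD contrast of WT muscle, the median ratio was 2.47 over 6 macrophage, 1.05 over 11 fibroblast, -1.15 over 5 satellite cell and -0.03 over 14 endothelial markers. In KO muscle it was 1.07, 1.11, 0.16 and -0.02, and -1.30 over 4 adipocyte markers. Their part in the HOX ratios was not tested.

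The mean ratio was below 0 for 17 of 26 members in WT aorta (46.7% of all probes), 17 in KO aorta (50.1%), 18 in WT muscle (51.4%) and 17 in KO muscle (49.3%). The median over the members was -0.25, -0.23, -0.37 and -0.19, beside 0.028, -0.0068, -0.016 and 0.0049 over all probes. A ratio below 0 in all 3 experiments was seen for 4 members in WT aorta (12.4% of all probes), 10 in KO aorta (16.1%), 11 in WT muscle (19.3%) and 7 in KO muscle (14.8%). Within the aorta the Hoxb genes had mean ratios below 0 at 8 of 8 members in WT and 7 of 8 in KO, and the 5 tested Hoxd genes at 4 and 5. In experiment 3 of WT aorta, however, the ratios of Hoxb2 to Hoxb8 were above 0, from 0.0048 to 0.52. Of the Hoxb genes, only Hoxb9 was below 0 in all 3 experiments there. The Hoxa genes were above 0 at 6 of 10 in WT and 5 of 10 in KO, and the Hoxc genes at 2 of 3 and 3 of 3. In WT muscle the Hoxb genes were above 0 at 4 of 8. Genes of a cluster share arrays and neighbours, so these counts by cluster are a description. In the plot of the ratios by gene, the points of most members lie between -1 and 1 in all 4 contrasts.

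**Figure D5:**
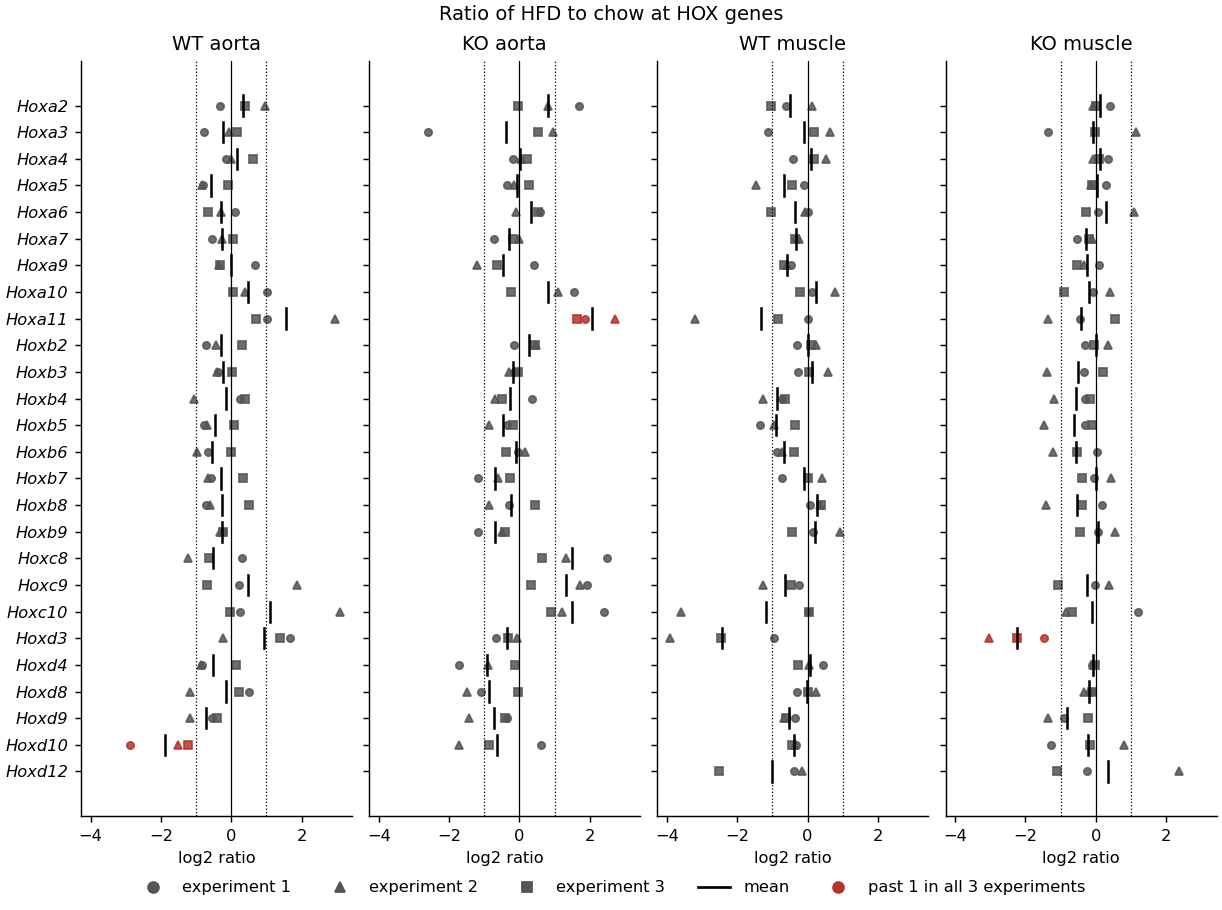
Log2 ratio of HFD to chow at tested HOX genes in the 4 combinations of strain and tissue, with 1 symbol per experiment and the mean as a bar. Dotted lines mark -1 and 1, and red marks members past 1 in all 3 experiments. These are Hoxd10 in WT aorta, Hoxa11 in KO aorta and Hoxd3 in KO muscle.

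Without experiment 1, the members past 1 in both other experiments were 1 in WT aorta, 1 in KO aorta, 1 in WT muscle and 1 in KO muscle. The shares of all probes given above hold for 3 experiments, so nothing is read from these counts. The diet responses of the strains were also set against each other in each tissue. After adjustment 0 of 26 members differed in each tissue by limma (0% of all probes), and without it 1 in the aorta (2.62% of all probes) and 0 in the muscle (4.12%). The unpaired test of the methods gave 1 and 0, with no share of all probes beside them, so nothing is read from these. The gene was Hoxc8, with a KO minus WT difference of 2.00 (standard error 0.63, limma adjusted p = 1.00), on a probe that entered the test only through WT chow aorta and was above background on 1 of 3 KO chow arrays, so the value is a description. Next in the aorta came Hoxd3 (-1.30), and in the muscle Hoxb8 (-0.82, standard error 0.45) and Hoxa5 (0.71, standard error 0.42), each with a limma adjusted p of 1.00. Hoxd3 entered the aortic test only through WT HFD, where 3 of 3 arrays were above background, so its value is a description. Without experiment 1 the differences of Hoxc8, Hoxd3, Hoxb8 and Hoxa5 were 1.92, -0.78, -1.29 and 0.85.

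The last comparison asked whether the strains differ at the members. Over all 24 arrays, 0 of 27 members passed after adjustment by limma, where 0.139% of all probes did, and 1 passed without it (4.35% of all probes). That gene was Hoxa5, with a KO minus WT difference of 0.30 (standard error 0.14, limma adjusted p = 1.00), higher on the KO array in 9 of 12 pairs. Hoxa9 had the next smallest p, at -0.36 (standard error 0.19), lower in 8 of 12 pairs. The 95% interval was 0.01 to 0.59 for Hoxa5 and -0.74 to 0.03 for Hoxa9. The differences of the 27 members ran from -0.53 to 0.30 with a median of 0.0080. Without experiment 1, Hoxa5 differed by 0.35 and Hoxa9 by -0.27.

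In each tissue and diet alone, 0 members passed after adjustment by limma (0.0438% of all probes in aortic chow, and 0% in the other groups), and 2, 1, 0 and 1 passed without it in aortic chow (5.83% of all probes), aortic HFD (1.53%), muscle chow (1.64%) and muscle HFD (2%). In aortic chow these were Hoxc8 and Hoxa10. Hoxc8 was at -2.04 (standard error 0.75), but entered the test only through WT chow, the higher group here, and this value is a description. Hoxa10 was at -0.93 (standard error 0.42). The levels of Hoxc8 were -4.71, -5.89 and -3.90 in WT and -7.61, -7.51 and -5.51 in KO, with 3 of 3 WT and 1 of 3 KO arrays well above background, and the strains overlapped. The levels of Hoxa10 were 0.00, -0.35 and -0.57 in WT and -2.01, -0.85 and -0.85 in KO, each KO array below each WT array. In aortic HFD, Hoxa9 was at 0.93, 0.58 and -0.39 in WT and at -0.23, -0.76 and -0.90 in KO. Its difference was -1.003 (standard error 0.34), lower on the KO array in 3 of 3 experiments with the strains overlapping, and Hoxa5 came next at 0.45. In muscle HFD, Hoxa5 was at 0.11, -0.64 and -0.21 in WT and at 0.55, 0.56 and 0.40 in KO, each KO array above each WT array. The difference was 0.75 (standard error 0.26), and Hoxb8 came next at -0.42. The separations of Hoxa10 and Hoxa5 are in members picked for a small p and are a description. In muscle chow, Hoxb3 and Hoxb4 had the smallest p, at 0.45 and -0.48. Without experiment 1, the difference of Hoxc8 in aortic chow was -1.62, that of Hoxa10 -0.39, that of Hoxa9 in aortic HFD -0.92 and that of Hoxa5 in muscle HFD 0.91.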

How the data were processed

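Single-colour Agilent arrays were read with Feature Extraction by the authors (version 10.5.1.1 in the file headers, 9.1 in the submitters' processing notes). The deposited scanner intensity values are background-subtracted processed signals. A table of log2 values that the authors deposited held the same signals plus 1 constant per array (within 0.01) and served as an alternative. Intensities were scaled to the 75th percentile of the non-control spots of the same array and taken to log2, outlier spots were dropped, and spots of a probe were averaged. Probes entered a test if 1 or more groups had them well above background on all of their arrays. Genes were named through accessions in the RefSeq table.

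Tests used limma 3.58.1 in R 4.3.3 with Benjamini-Hochberg adjustment over all probes at 0.05. The tissue fit had the 12 pairs of the same mice as a block and the slide as a random block (correlation 0.00835), since each of 6 slides held 1 tissue of 1 experiment. The diet fit had strain and experiment as a block, and the strain fit the mean of each tissue and diet. Deviations of paired arrays from their group means correlated at 0.135 to 0.542 in 12 of 12 tissue pairs. For KO and WT arrays of an experiment they correlated at 0.123 to 0.773 in 12 of 12 pairs, which the strain fit did not use. With the slide as a block, 2 members passed unadjusted over all arrays in place of 1, and 4 in aortic chow in place of 2. After adjustment 0 passed in both, and nothing is read from these counts. Replicates are pools of mice from separate experiments, and their number limits the precision. In addition, the methods' criterion (a log2 ratio past 1 in all 3 experiments) and the methods' t-test were applied. Every member is in the counts, and results of some single genes are not reported here. Described in full were, between tissues, members called with the same sign in all 12 pairs, and in the other contrasts those past a threshold or, with none, the 2 of smallest unadjusted p. Other members were named after their values were seen, and from each regulator list up to 4 called genes a direction. Members, lists and tests were chosen with earlier results of these data known. Alternatives were another background correction (normexp with offset 50 on the median signal, as no mean signal was in the files used), 3 scalings, filters, probes, blocks and leaving out each experiment. On simulated data the tissue and strain fits recovered part of the planted changes, and the diet fit, simulated for the KO aorta, none of them after adjustment.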

Additional observations from a re-analysis of the deposited data

How the results depend on the processing

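Among the single-gene results, 510 of 560 alternative values kept their direction and side of the threshold, 36 lost the call, 5 gained it and 9 changed sign. These values pool the tissue results with diet and strain results that did not pass, in fits where almost no probe passes. For the latter, staying on their side was nearly fixed, so the pooled count does not measure stability. Without the replicate block for pairs of the same mice, 11 members were called between tissues in place of 18, with 6 higher in the aorta and 5 higher in the muscle. With the arrays of a slide averaged first, the calls of Hoxa3, Hoxa4, Hoxa9 and Hoxb2 were lost. Leaving out any 1 experiment gave 6 members higher in the aorta (lowest and highest both 6). Calls of Hoxa3 and Hoxa4 were lost without each of the 3 experiments, those of Hoxa9 and Hoxb2 without experiment 1 or 2, that of Hoxc10 without 1 or 3, that of Hoxd10 without 2 or 3, that of Hoxd12 without 1 and that of Hoxa5 without 3. Members past 1 in all experiments kept numbered 4 to 10 over the 4 diet contrasts when an experiment was left out, against 3 with all, since fewer ratios then have to pass. They numbered 1 to 2 in WT aorta, 1 to 6 in KO aorta, 1 to 1 in WT muscle and 1 to 2 in KO muscle. In WT muscle 1 passed under quantile normalization and 1 with no filter on dim probes, and in KO muscle 0 passed under normexp and 0 with only probes well above background on every array. No share of all probes stands beside these diet counts or the tissue counts given before them, so nothing is read from them. Among differences that did not pass, the sign changed in the deposited table for Hoxb3 (0.22), Hoxb4 (0.044), Hoxb8 (0.15) and Hoxb9 (0.024). With 1 experiment left out, Hoxb3 ran from -0.27 to 0.14 (without experiment 3) and Hoxd3 from -0.24 (without experiment 3), with -0.22 without experiment 2, to 0.73, and under normexp Hoxd3 was at -0.23. The KO minus WT value of Hoxb8 in muscle HFD ran from -1.04 to 0.064 (without experiment 2). The adjusted counts of 0 for diet, from a fit that recovered no planted change on simulated data of the KO aorta, say nothing about stability. The causes of these changes were not tested. Genes near background, such as Hoxd3, Hoxc8 and Hoxd12, are limited by signal.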
